A study of Mus musculus with 6 samples.

Results

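The sites described here are the ATF4 binding sites of WT mouse embryonic fibroblasts (MEFs), compared between cells grown without leucine (-Leu) and with it (+Leu). A site of one list was called common when a peak of the other list lay on the same chromosome with its center 300 bp or less away. A -Leu peak without such a partner was called gained, and a +Leu peak without one was called lost. There were 4850 peaks with leucine and 6374 without it, together 11224 of the 17462 peaks listed for all conditions. The study mapped ATF4 by ChIP-seq in primary MEFs, WT or GCN2-/- (GCN2 KO), of the strain 129S6/SvEvTac. Cells were kept for 24 h in complete DMEM (+Leu) or in DMEM lacking leucine (-Leu), and chromatin was precipitated with an anti-ATF4 antibody (sc-200). A condition was represented by 1 library, for which chromatin of 2 independent experiments, with 5 or more replicates in each, had been pooled. No difference below therefore has a replicate check, and none was tested. The headers name the input of leucine-fed cells of the same genotype as the control of both WT lists. The lists measure binding and not expression, so the cell type could not be checked against its markers. Of 18 genes of fibroblast matrix and identity none had a site in either list within 5 kb of its TSS. Few protein-coding genes had one at all: 0.447% a common site, 3.93% gained sites only, 2.51% lost sites only and 0.209% gained and lost sites. The absence is therefore not particular to these 18 genes.

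ATF4 is a basic leucine zipper (bZIP) transcription factor and the main effector of the integrated stress response. When an amino acid is scarce, uncharged tRNA activates the kinase GCN2, which phosphorylates eIF2α, lowers general translation and raises the translation of ATF4 mRNA. ATF4 then binds, with a bZIP partner, composite C/EBP-ATF response elements (CARE), and its known targets supply amino acids, charge tRNA, act on glutathione and feed back on the stress response.

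Gained and lost are names for presence in a list. A peak was listed when the authors' caller gave it a false discovery rate under 0.05, and its score is the authors' own, a whole number from 13 up whose scale the methods do not state. A ratio of scores, or a score called 2-fold higher, is therefore not a fold of binding. Scores were not normalized between libraries and the lists do not hold the sequencing depth, so a higher score, or a larger number of sites, in -Leu and a deeper or better enriched library cannot be told apart.

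Sequences at some of the strongest sites of each class are shown because the classes differed in what lay under their centers. They are examples, chosen with their sequences known: of the 10 strongest sites of a class, 1 common and 5 gained ones had no such element, of which the one at Ppp1r15a is shown, and Mir3066 is shown as a lost site that had one. Each line gives 30 bases of the mm10 (GRCm38) reference, 5′ to 3′ on the strand named, and the capitals mark TGATGCAA or a sequence that differs from it only at base 6. Lines without capitals show the 30 bases around the center of a site with no such sequence in its listed window.
Chac1, common, promoter, chr2:119351038-119351067, minus strand: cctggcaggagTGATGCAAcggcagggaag
Klhdc4, common, intergenic, chr8:121851213-121851242, minus strand: ccccatcagcaTGATGCAAtatttgcttct
Ubr2, common, intron, chr17:46995103-46995132, plus strand: aggctggctgcTGATGCAAcctcagagcta
Kdm6b, common, promoter, chr11:69414536-69414565, plus strand: tctggcctccaTGATGCAAtgcactgcaag
Asns, common, promoter, chr6:7693214-7693243, minus strand: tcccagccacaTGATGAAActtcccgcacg
Acot2, common, promoter, chr12:83987537-83987566, plus strand: actctaggacgTGATGAAActcaattgcaa
Ciapin1, gained, intron, chr8:94825329-94825358, plus strand: atcctggagagTGATGCAAacacttagcaa
Paqr3, gained, intron, chr5:97108519-97108548, minus strand: gctttcaacagTGATGCAAtcggaggaaag
Herpud1, gained, intron, chr8:94390663-94390692, minus strand: aacaaagggccTGATGCAActctttgcaat
Trp53inp1, gained, intergenic, chr4:11147872-11147901, plus strand: tggaaatcccaTGATGTAAccctctgaaac
Ppp1r15a, gained, transcription end, chr7:45523488-45523517, plus strand: tcccagcagagttcatatgcaagaagtcgc
Psmd3, lost, intron, chr11:98676019-98676048, plus strand: gggaacatgcagacctactgtgctcacagg
Mir3066, lost, intergenic, chr12:17449870-17449899, minus strand: aaagctgtggcTGATGAAAcagcagctatt
In the common and gained sites shown with capitals, the middle of the element lay between -29.5 and 16.5 bp from the center of the site, and in the lost Mir3066 site it lay 42.5 bp away. The gene named is that of the nearest TSS. The Psmd3 site lay upstream of that TSS, at -6521 bp, and its intron belongs to another transcript.

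Few sites were in both lists, and the share that was common was higher among the stronger peaks of each list. Of the +Leu peaks, 308 (6.35%, 95% Wilson interval 5.70 to 7.07) had a -Leu partner, and of the -Leu peaks 309 (4.85%, 4.35 to 5.40) had a +Leu partner. The other 4542 +Leu peaks (93.6%) were lost and the other 6065 -Leu peaks (95.2%) were gained, a ratio of gained to lost sites of 1.34. With a score of 30 or more required in both lists, 3508 sites were gained and 2204 lost (1.59). These intervals, like all below, cover counting error only. At the edge of the rule, a +Leu site in Atp13a1 matched at 292 bp, and sites at Gm11213 and Susd4 missed at 324 and 330 bp. The median distance within a matched pair was 25.5 bp, and 207 of the 308 pairs were 50 bp or less apart.

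No lost site was among the strongest +Leu peaks. All 62 +Leu peaks that scored over 124 were common, and 124 was the highest score of a lost site. Among the 100 strongest +Leu peaks 97 were common, among the 500 strongest 179, and below a score of 30 only 60 of 2422. Lost sites scored 13 to 124 with a median of 29, and 3 of them reached 100. Gained sites had almost the same median, 30, but a long upper range, up to 2628, and 435 of them reached 100. Common sites had a median of 56.0 in the +Leu list and 160 in the -Leu list. The -Leu list thus held strong sites of both kinds, since 39 of its 50 strongest peaks were common and 11 gained, and of its 126 peaks scoring 400 or more, 88 (69.8%) were common.

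**Figure D1:**
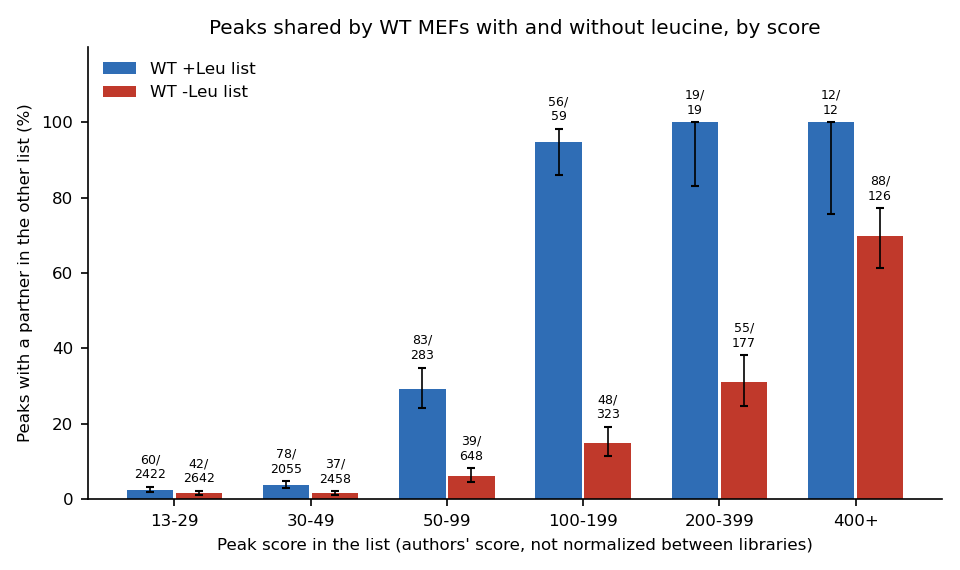
Share of peaks with a partner in the other WT list (y axis, percent) by the peak's score in its own list (x axis, bins). Bars are the +Leu (blue) and -Leu (red) lists, error bars are 95% Wilson intervals, and the fractions give common peaks over peaks in the bin. From a score of 200 up all +Leu peaks were common, whereas 55 of 177 and 88 of 126 -Leu peaks were.

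At the common sites the score was mostly higher without leucine. It was higher in the -Leu list in 252 of 308 pairs (81.8%, 77.1 to 85.7), equal in 8 and lower in 48, and the median ratio of the -Leu to the +Leu score was 2.36 (95% interval 2.12 to 2.73). The score was at least 2-fold higher in 180 pairs (58.4%) and at least 2-fold lower in 10 (3.25%). On the percentile rank within each list, which removes a common scale factor, the pairs split evenly, with 151 higher and 157 lower in -Leu. The higher -Leu scores were thus not matched by higher ranks. A rank also depends on the other peaks of its list, and 435 gained but only 3 lost sites scored 100 or more. Common sites stood near the top of both lists, at median percentiles of 95.5 (+Leu) and 94.0 (-Leu). The cause of the even split in rank was not tested.

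The 10 strongest common sites by -Leu score were, with their +Leu and -Leu scores, as follows. The site at the promoter of Chac1, an enzyme that degrades glutathione, scored 1499 and 2515 at -186 bp from the TSS, the highest score of the +Leu list. An intergenic site at -21.7 kb from Klhdc4 scored 1409 and 2319, and an intronic site 15.4 kb into Ubr2, an E3 ligase of the N-degron pathway, scored 1209 and 2249. These 3 sites were ranked 1, 2 and 3 with leucine and 2, 3 and 4 without it. Kdm6b, a histone H3K27 demethylase, scored 187 and 1791 at its promoter, and Asns, the enzyme that makes asparagine, scored 746 and 1787. Acot2, a mitochondrial acyl-CoA thioesterase, scored 141 and 1676, and Arl14ep 390 and 1582. Atf5, itself a bZIP factor of the stress response, scored 808 and 1569. The last 2 were distal to their nearest gene, at 140 kb from Mtx2, a mitochondrial outer membrane protein (234 and 1407), and at 9.71 kb from Tgif1, a homeobox repressor (143 and 1391). Thus Chac1, Klhdc4, Ubr2, Asns and Atf5 were within the top 10 of both lists, whereas Kdm6b was at rank 35 of 4850 with leucine and 5 of 6374 without it, and Acot2 at 53 and 7.

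The 5 sites with the largest ratio scored 27 to 76 with leucine, and a ratio ranks sites of low +Leu score high by construction. Gpc6, a cell surface proteoglycan, had an intronic site 221 kb from its TSS that scored 36 and 937, a ratio of 26.0. Tmprss13, a membrane serine protease, scored 29 and 656 (22.6), and Nfil3, a bZIP repressor of the circadian and immune systems, 32 and 606 (18.9). Cyb5r1, a cytochrome b5 reductase, scored 27 and 450 (16.7) and Gap43, a growth cone protein, 76 and 1251 (16.5). The 5 lowest ratios stood at sites that scored 37 to 73 with leucine, at percentiles of 82.3 to 97.1 of that list, and 23 or less without it. Ankrd11, a chromatin regulator, scored 73 and 19 (0.260), Pknox2, a homeobox factor, 69 and 23 (0.333), and Klk14, a secreted protease, 46 and 17 (0.370). Lrp1, an endocytic receptor, scored 37 and 15 (0.405), and 5430421F17Rik 54 and 22 (0.407). No pair with a +Leu score of 100 or more was 2-fold lower without leucine, and 58 of these 87 pairs were at least 2-fold higher.

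**Figure D2:**
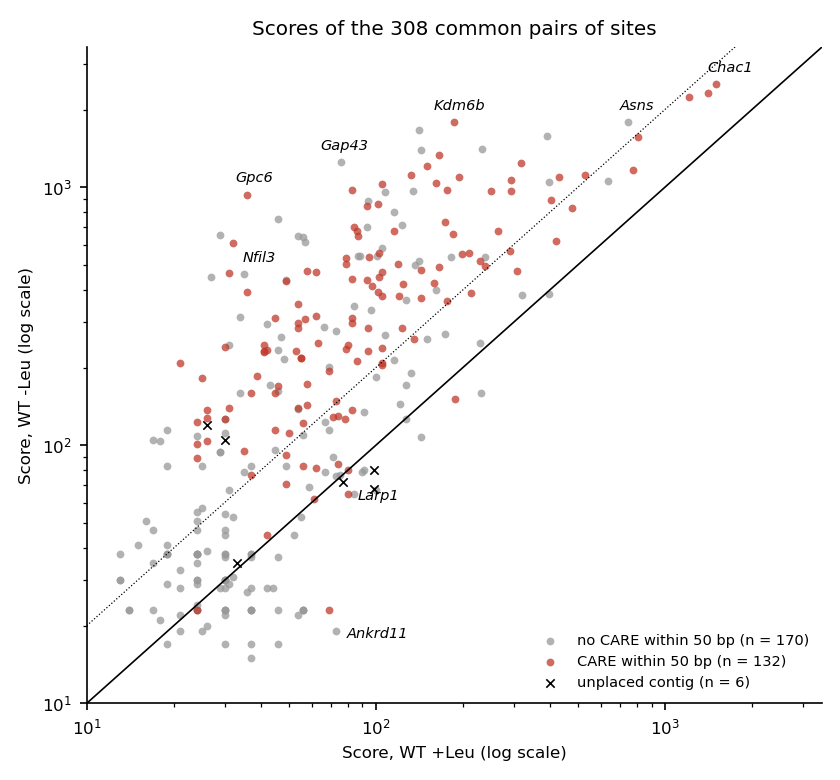
Score of the 308 common pairs with leucine (x axis) and without it (y axis), both on log scales. Each point is a pair, in red where TGATGCAA (CARE) lay within 50 bp of the -Leu center (n = 132), in gray where it did not (n = 170), and as a cross on an unplaced contig (n = 6). The solid line marks equal scores and the dotted line 2-fold. Most points lie above the solid line, and 127 of the 132 red ones do.

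The gained class reached the top of the -Leu list. Its strongest site, which was also the strongest of all 6374 -Leu peaks, scored 2628 in an intron 13 kb from the TSS of Ciapin1, a factor of cytosolic iron-sulfur cluster assembly, and the nearest +Leu peak was 73687 bp away. Paqr3, a Golgi membrane protein, had an intronic site that scored 1441 at 3059 bp from its TSS. At Ppp1r15a, which encodes GADD34, the phosphatase subunit that reverses eIF2α phosphorylation, a site at the end of transcription scored 1129 and a second gained site at the promoter 76. Neither had a +Leu partner. An intronic site near Mir701 scored 909.

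Herpud1, a component of ER-associated degradation, held sites of both kinds. Its gained intronic site at 4207 bp from the TSS scored 866, and its promoter carried a common site that scored 105 with and 379 without leucine. Trp53inp1, a stress-induced p53 target, had a site at -8571 bp that scored 863. The other gained sites among the 10 strongest lay at Mrps28, a mitochondrial ribosome subunit (837, 50.7 kb), Gm13498 (822, -95.4 kb), Dhrs3, a retinal reductase (772, 56.8 kb), and Lgals6, a galectin (745, 4310 bp). So none of the 10 strongest gained sites lay within 1 kb of a TSS, whereas 5 of the 10 strongest common sites did.

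Lost sites were weak and of mixed kind. The highest lay in Rn45s, the 45S precursor of ribosomal RNA, with a score of 124, and the nearest -Leu peak was 336 bp away, past the matching limit. It was followed by sites at Mir302b (102, -18.4 kb) and Pisd-ps3 (100), a pseudogene on an unplaced contig, where reads of near-identical copies can be split. Popdc3, a cAMP-binding membrane protein, and Psmd3, a proteasome subunit, scored 90 each, the site of Mir3066 scored 87, and sites at Rhobtb1, Cacna2d3, Vmn2r102, Gm8096 and Dnajc13 tied at 78. Among those named here on assembled chromosomes, the site at Mir3066 was the only one with TGATGNAA within 50 bp of its center.

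The classes differed in where they lay. Of the common sites 22.0% (17.7 to 27.0) were annotated as promoter or lay within 1 kb of a TSS, of the gained 6.05% (5.48 to 6.68) and of the lost 4.10% (3.56 to 4.71). The difference was not tested. Introns held 41.1%, 45.6% and 45.2%, and intergenic sequence 37.9%, 40.8% and 43.3%. Sites over 50 kb from any TSS made up 23.3% of the common, 33.1% of the gained and 35.2% of the lost. Common pairs at promoters had a median score ratio of 3.56 (n = 65), and the other pairs one of 2.08 (n = 243).

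Repeats followed the opposite order. Of the common -Leu sites 13.3% (9.93 to 17.5) were annotated to a repeat, of the gained 22.4% (21.4 to 23.5) and of the lost 26.2% (24.9 to 27.5). LTR elements, which are remnants of endogenous retroviruses, made up 4.21%, 7.73% and 9.42%, and CpG islands 4.21%, 0.692% and 0.506%. Each site has a single detailed annotation, and sites annotated as promoter kept that label. Repeats and CpG islands at such promoters are therefore not counted, and these shares are not independent of the promoter share. Within 1 kb, 47 gained sites (0.775%) had a lost site and 7 (0.115%) a common one. Within 5 kb the numbers were 295 (4.86%) and 35 (0.577%), and within 50 kb 1897 (31.3%) and 188 (3.10%), with far fewer common than lost sites to be near. Across the autosomes the ratio of gained to lost sites ran from 1.05 on chromosome 10 to 1.61 on chromosome 19, so gained sites were the more numerous on each.

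**Figure D3:**
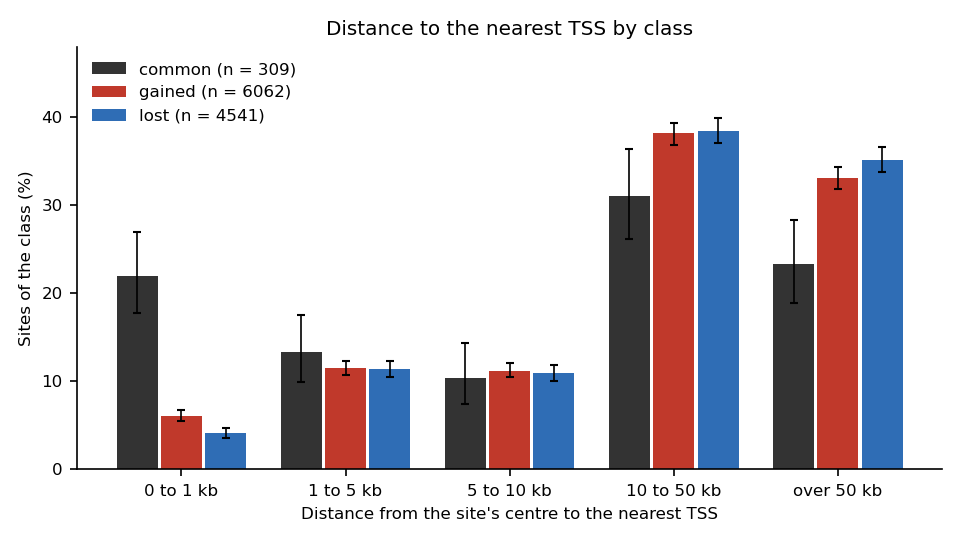
Share of common (black, -Leu list), gained (red) and lost (blue) sites (y axis, percent of the class) by distance from the site's center to the nearest TSS (x axis). Error bars are 95% Wilson intervals. Within 1 kb the shares are 22.0%, 6.05% and 4.10%, and over 50 kb they are 23.3%, 33.1% and 35.2%.

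The sequence under the center set the gained apart from the lost sites. TGATGCAA, a form of the CARE, was searched on both strands wholly within 50 bp of the center. It was in 43.6% (38.1 to 49.2) of the common -Leu windows, 5.12% (4.59 to 5.70) of the gained and 0.331% (0.200 to 0.545) of the lost. Windows of the same size centered 1 kb to either side held it in 0.165%, 0.223% and 0.209%. The lost sites were thus near the level of their own flanks, while the gained sites were above theirs. With any base allowed at position 6 (TGATGNAA, which contains TGATGCAA), the shares were 56.8%, 8.70% and 1.32%, beside flanks of 1.32%, 1.38% and 1.38%. Base 6 was C in 75% of the common matches, 57.9% of the gained and 25% of the lost. In the whole listed window the element lay a median of 11.5 bp from the center at common, 24.5 bp at gained and 65.0 bp at lost sites.

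Among gained sites the share was higher at higher scores, and among lost sites it was under 1% in every score bin. In gained sites it was 0.770% at scores of 13 to 29, 2.52% at 30 to 49, 18.1% at 50 to 99 and 27.7% at 100 to 199, and it was near that level above (27.9% at 200 to 399 and 23.7% from 400). In lost sites it was 0.169%, 0.506% and 0.503% in the first 3 bins, and 186 lost promoter sites held none (upper Wilson bound 2.02%). Only 15 lost sites carried the element. The highest of them lay at -300 kb from Marcks with a score of 56 and the next at 119 kb from Car10 with 37, both chosen after their values were seen. Of all 8-base words, counted on both strands, TGATGCAA led in the gained class over its flanks (310 of 6059 windows), whereas the leading word of the lost class was CAGCACAG (98 of 4537 windows, 2.16%, flanks 0.882%).

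Other bZIP elements were less frequent than TGATGCAA in common and gained windows. In lost windows the AP-1 element, a shorter word, and the CRE-like TGATGTCA (0.705%, flanks 0.617%) were more frequent than TGATGCAA. The AP-1 element was more frequent than TGATGCAA in the flanks of lost sites too (2.83% against 0.209%). The AP-1 element TGANTCA, on both strands, was in 5.61% (3.53 to 8.80) of the common, 4.36% (3.87 to 4.90) of the gained and 2.53% (2.12 to 3.03) of the lost windows, beside flanks of 1.98%, 2.86% and 2.83%. TGACGCAA was in 33 gained windows (0.545%), against 0.00825% of their flanks. In the RefSeq promoters (250 bases before to 50 after the start, GRCm38) TGATGCAA was in 1.03% of 27025, in 10 of 49 genes with a common site within 1 kb (20.4%), in 14 of 281 with a gained site (4.98%) and in 3 of 136 with a lost site (2.21%). A match is a description of the letters and not a measured contact.

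**Figure D4:**
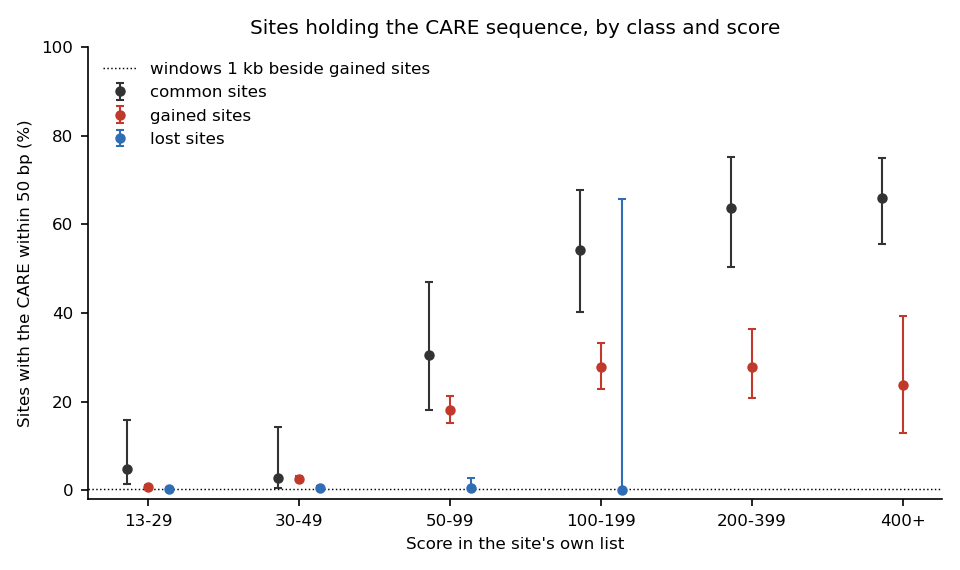
Share of common (black), gained (red) and lost (blue) sites that held TGATGCAA within 50 bp of the center (y axis, percent) by score in the site's own list (x axis, bins), with 95% Wilson intervals. The dotted line marks the windows 1 kb beside gained sites (0.223%). Gained sites reach 27.7% at scores of 100 to 199, lost sites are at 0.506% or less, and the lost bin of 100 to 199 holds only 2 sites.

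At the common sites the element went with a larger ratio. With TGATGCAA in the -Leu window the median ratio was 3.61 (2.99 to 4.0) and the score was higher in 127 of 132 pairs. Without it the median was 1.66 (1.5 to 2.0), and 122 of 170 were higher. Of the pairs at least 2-fold higher 57.9% (50.5 to 64.9) held it, of those between 1 and 2-fold 33.8% (23.9 to 45.4), and of those equal or lower 9.43% (4.10 to 20.3). Element and ratio are not independent, because the element was searched at the -Leu center and the -Leu score is the numerator of the ratio. Common -Leu sites held the element in 4.76% at scores of 13 to 29 and in 65.9% from 400. The median -Leu score of the pairs was 336 with the element and 72.5 without it. The 6 pairs on unplaced contigs, which the sequence search left out, had a median ratio of 0.998.

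Genes were assigned where a site lay within 5 kb of the TSS. Among 21031 protein-coding genes of the reference, 94 (0.447%) had a common site, 826 (3.93%) gained sites only, 527 (2.51%) lost sites only and 44 (0.209%) gained and lost sites but no common one. Against this background, 45 of the 263 genes on 11 lists of pathways had a common site, 25 gained sites only, 9 lost sites only and 2 gained and lost sites. The lists were chosen with earlier results of these data known, so their counts are not independent evidence. Of the 45 genes with a common site, 43 scored higher without leucine, with a median ratio of 2.65. The 61 other common pairs within 5 kb had a similar median, 2.78.

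The aminoacyl-tRNA synthetases, which charge tRNA with amino acids, had the largest number of genes with a common site. Of 38 genes 12 (31.6%, against 0.447% of all genes) had one, 2 gained sites only and none lost sites only. The list also holds the genes named for the mitochondrial enzymes (Aars2 to Yars2). None of these had a site of any class, so the share is not even across the list. The scores with and without leucine were 432 and 1098 at Yars, 404 and 893 at Aars, 185 and 662 at Iars, 422 and 621 at Mars, and 211 and 559 at Sars. Gars, the glycine enzyme, had 2 common sites, one that scored 88 and 543 at its TSS and one of 119 and 503 further in, and Lars, the leucine enzyme, scored 73 and 278. Nars (25 and 183), Eprs (46 and 170), Tars (30 and 127) and Vars (30 and 126) scored low with leucine and higher without it. Cars alone of the 12 was lower, at 188 and 151. Wars, the tryptophan enzyme, had only a gained site, at -302 bp with a score of 360 (rank 147 of 6374) and TGATGCAA in its window, and Rars one of 83.

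Of the 19 genes of amino acid and one-carbon synthesis, 9 (47.4%, the highest share of the 11 lists) had a common site, 3 gained sites only and none lost sites only. Besides Asns these were Shmt2 (530 and 1121), Mthfd2 (635 and 1058), Mthfd1l (58 and 144) and Aldh1l2 (58 and 173) of mitochondrial folate metabolism. Psat1 (398 and 1050) and Phgdh (86 and 212) of serine synthesis, and Gpt2 (238 and 536) and Bcat1 (50 and 112), both aminotransferases, had common sites too. All 9 scored higher without leucine. The 3 with gained sites only were at their promoters, namely Aldh18a1 (179 at 51 bp) and Pycr1 (118 at -178 bp) of proline synthesis and Got1 (152 at -81 bp), an aspartate aminotransferase.

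Amino acid transporters were mixed. Of 24 genes, 4 (16.7%, against 0.447% of all genes) had a common site, all higher without leucine. They were Slc7a1, the arginine and lysine carrier (229 and 517), Slc38a2, a sodium-coupled neutral carrier (80 and 245), Slc1a4 (37 and 160) and Slc6a9, a glycine carrier (69 and 115). Gained sites only were at Slc3a2, the shared heavy chain of several exchangers (347 at 871 bp), and at Slc7a11, the cystine carrier (77 at -16 bp, with TGATGCAA). Slc38a7 had a gained site of 107 and a lost one of 51, and 3 genes had lost sites only, the highest at Slc38a4 with 30. The common site of Slc7a5, the leucine exchanger, scored 776 and 1171 but lay at 9.08 kb and so outside the 5 kb limit. It was chosen after its values were seen.

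In the list of stress response control, 7 of 20 genes (35.0%, against 0.447% of all genes) had a common site, 3 gained only, 1 lost only and 1 both. Besides Kdm6b, these were Trib3, a pseudokinase that restrains ATF4 (101 and 540), and Ppp1r15b, the constitutive eIF2α phosphatase subunit (144 and 372). Nupr1 (176 and 363), Vldlr (62 and 318) and Fgf21, a secreted stress hormone (94 and 233), were higher without leucine as well, and Bhlha15 had 37 and 38. Gained sites included that of Gdf15, another secreted stress hormone (413 at 640 bp), beside a lost site of 25 further upstream. Eif2b1 (57) and Eif2s2 (45), subunits of the initiation factors that the pathway acts on, had gained sites, and the heme-regulated kinase gene Eif2ak1 a lost site of 30.

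Of 47 genes of bZIP factors, 6 (12.8%, against 0.447% of all genes) had a common site and all 6 scored higher without leucine. Atf5 and Nfil3 are given above, and the others were Nfe2l1 (83 and 974), Ddit3, which encodes CHOP (173 and 736), Cebpg, a dimer partner of ATF4 (103 and 559), and Jdp2 (53 and 233). TGATGCAA lay in the -Leu window of all 6. Gained sites only were weaker, with Atf6 at 77 and Atf3 at 54, and lost sites were at Bach1 (36) and Cebpb (35), both near the promoter and without the element. A -Leu peak lay 1611 bp from the lost Cebpb site, past the matching limit. The paper lists Cebpb among its WT targets both with and without leucine, so lost here does not mean that binding near the gene was absent.

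The mTORC1 pathway, which senses leucine and drives translation, had 4 genes with a common site among 28 (14.3%, against 0.447% of all genes). None had gained or lost sites only, which 3.93% and 2.51% of all genes had, so few would be due among 28. Sesn2, a leucine sensor that inhibits the pathway, scored 54 and 646 at -3587 bp and 54 and 138 at a second common site, at 575 bp. A lost site of 31 lay between them at -262 bp. Eif4ebp1, the repressor of cap-dependent translation, scored 137 and 500, and Ddit4 (REDD1), an inhibitor of mTORC1, 320 and 384. At the Larp1 promoter, whose product represses TOP mRNAs, the score was 80 with and 65 without leucine, at percentiles of 97.5 and 85.4 of the lists, which differ in length and composition. TGATGCAA was in its -Leu window. Larp1 and Cars were the only listed genes whose common site scored lower without leucine. For Larp1 the paper reports no significant increase in its ChIP-seq. By ChIP-qPCR, with another antibody, it reports more ATF4 at this promoter in WT MEFs without leucine.

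The remaining lists had 1 gene or none with a common site, beside shares over all genes of 0.447% common, 3.93% gained only and 2.51% lost only. Gained sites only were at 33.3% of the glutathione and cysteine genes and 18.2% of the ER genes. They were at 8.70% of the autophagy genes and 8.33% of the mitochondrial chaperone and protease genes. These shares are above 3.93% but rest on 4 genes or fewer in each list. ER chaperones and genes of the unfolded protein response had 1 common gene of 22, Herpud1, and 4 with gained sites only, among them Sel1l, a subunit of the degradation ligase (542 at 3550 bp), Hspa5, the chaperone BiP (135), and Wfs1 (71). Glutathione and cysteine metabolism had 1 common gene of 12, Chac1, and 4 with gained sites only, Gpx4, the lipid peroxidase (227), Cth (48), and Gsr and Glrx (30 each). Cbs had a lost site of 37. Mitochondrial chaperones had a common site at Hspa9, the chaperone mortalin (108 and 956), a gained one at Dnaja3, its cochaperone (215), and a lost one at Clpp (21). Autophagy had no common gene of 23, and gained sites at Sqstm1, the receptor p62 (545 at -1305 bp), and Atg5 (23).

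**Figure D5:**
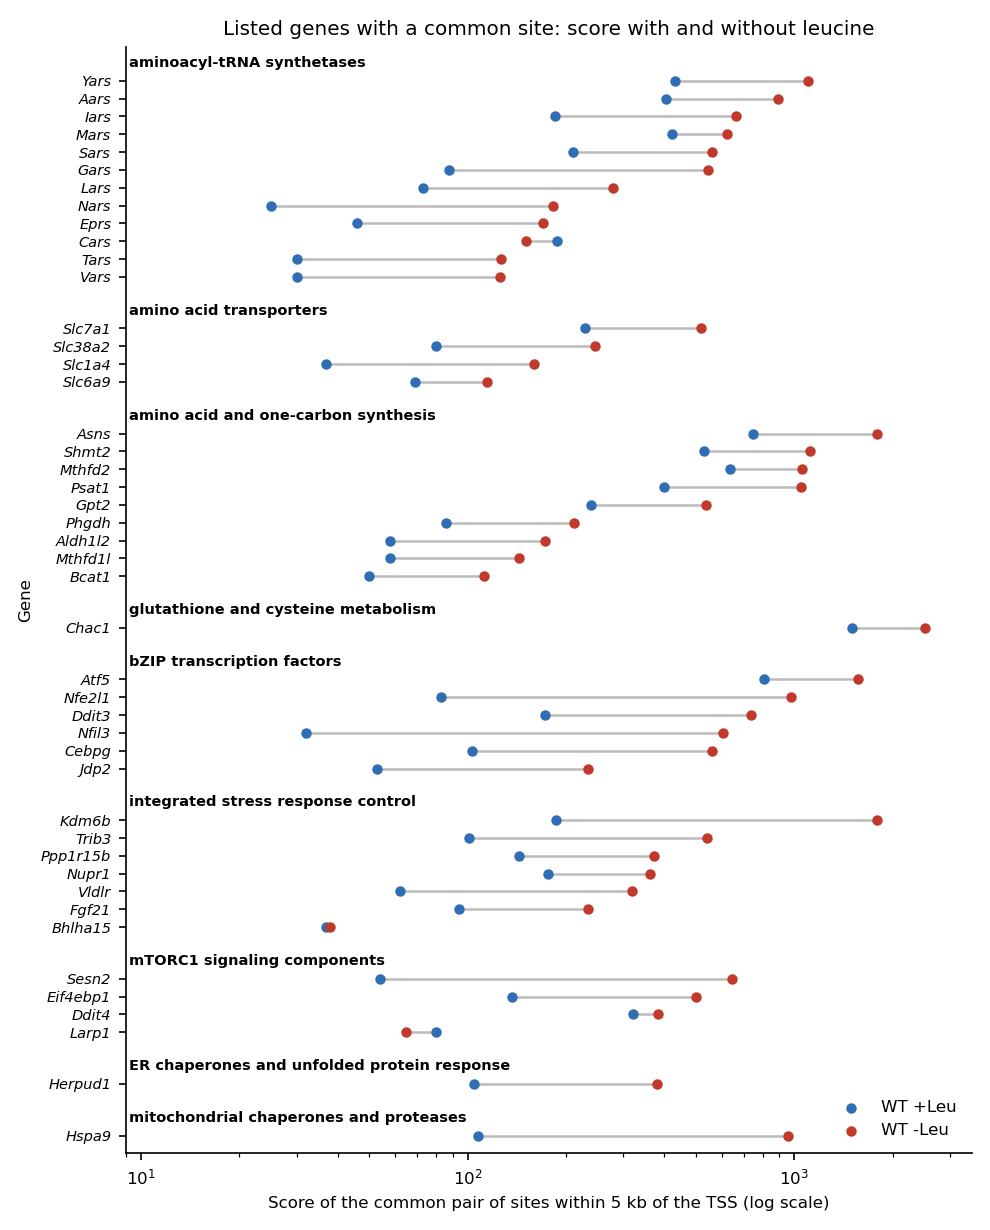
Scores with (blue) and without (red) leucine at the 45 listed genes with a common site within 5 kb of the TSS (x axis, log scale; y axis, genes grouped by list). For genes with 2 common pairs the one with the higher -Leu score is drawn. The red point is to the right in 43 genes and to the left at Cars and Larp1.

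The genes with the largest number of gained sites were as follows. Pgbd5, a transposase-derived gene, and Vmn1r2, a vomeronasal receptor, had the most by nearest TSS at any distance, 8 each, with scores of 23 to 38 and 16 to 57 and no TGATGCAA. Of the 5 genes with 7, 4930563F08Rik and Psapl1 included strong ones, with scores up to 481 and 369, and both were chosen after their values were seen. Within 5 kb the most were 4 at Ush1g, a scaffold of hair cells, scoring 17 to 30.

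GCN2 KO MEFs, the genotype that lacks the kinase, were used to see which of the WT sites were also listed there. Of the WT common sites 22.0% (17.7 to 27.0) had a partner in the GCN2 KO +Leu list and 14.2% in the GCN2 KO -Leu list. Of the gained sites 0.692% (0.513 to 0.935) and 0.610% did, and of the lost 0.594% (0.409 to 0.864) and 0.683%. For gained sites scoring 100 or more it was 7 of 435 (1.61%) and 4 of 435, against 59 (30.9%) and 36 of the 191 common sites of that strength. Of the 10 strongest common sites 9 were in each GCN2 KO list. Chac1 scored 391 and 184 there, Asns 184 and 41, and Kdm6b 128 with leucine and none without. Of the 10 strongest gained sites none was in the GCN2 KO +Leu list and 1, at Mir701 with 28, in the GCN2 KO -Leu list. The GCN2 KO lists were shorter (3566 and 2672 peaks) and of unknown depth, and the difference between the genotypes was not tested.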

How the data were processed

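ATF4 ChIP-seq libraries of WT MEFs grown with or without leucine were compared through the annotated peak lists. The authors aligned single 50 bp reads to mm10 with BWA 0.7.12, called peaks with MACS2 2.1.0 (--nomodel, false discovery rate 0.05) against input DNA and used HOMER 4.7 to annotate windows of 150 bp to either side of each summit. The deposited values used were a score per peak (a whole number, not normalized between libraries), the signed distance to the closest TSS, and the fraction of G and C bases in the window. The lists hold no reads, so the depth is unknown and a score has no error.

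Centers were taken as the start plus 150 bp, matched at 300 bp, and scores ranked within each list. Shares carry 95% Wilson intervals and the median ratio an order-statistic interval. GC content of all 4839 +Leu and 6362 -Leu peaks on assembled chromosomes equalled that of GRCm38, whose RefSeq sequence, promoters and genes were used. On simulated data the matching step called 500 of 500 planted partners and 0 of 2500 decoys, and the motif step 300 of 300 planted windows. Partners were planted within the 300 bp limit, and decoys lay beyond it or had no peak near. The simulation therefore checks the code and not how well the limit works on real lists. Tables were made with pandas 2.3.3, intervals with scipy 1.17.1, sequences read with pysam 0.24.0 and samtools 1.23.1, and plots drawn with matplotlib 3.10.9 (Python 3.11.15, numpy 2.4.6).

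Genes were named by rule: the 10 strongest sites of each class, the 5 highest and 5 lowest score ratios, listed genes with a common site within 5 kb, up to 4 gained and 2 lost genes of each list, the genes the study names, and those with the most gained sites. Others are said to have been chosen after their values were seen. The comparison, the lists and the rules were chosen with earlier results of these data known. Alternatives were matching at 100 and 1000 bp, a score of 30 or more, equal list lengths, assembled chromosomes only, percentile ranks, annotated promoters only, TSS limits of 1 and 10 kb, a motif window of 150 bp and TGATGNAA. The input libraries were not analysed here, and 1 of the 10 strongest lost sites is not reported here.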

Additional observations from a re-analysis of the deposited data

Results flagged for a closer look

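The same contrast gave different values in the 2 genotypes. The ratio of gained to lost sites was 1.34 in WT and 0.743 in GCN2 KO MEFs. Common pairs scored higher without leucine in 81.8% of 308 pairs in WT and in 45.9% (36.4 to 55.8) of 98 pairs in GCN2 KO, an interval that spans an even split, and the median score ratio was 2.36 and 1.0. The ratio of gained to lost sites follows the lengths of the lists (6374 and 4850 peaks in WT, 2672 and 3566 in GCN2 KO). Each genotype had 1 library per condition, so the difference was not tested. The effect of genotype and that of library depth cannot be told apart here.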

How the results depend on the processing

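No paired analysis was possible because each condition was a single library and the results come from no test. Of 108 alternative values for 18 results, 68 stayed within 1.5 times (counts) or within the interval of the reported value, 38 moved beyond it and 2 turned. The order common over gained over lost held under all 6 alternatives for the promoter share and all 7 for the motif share. Equal list lengths bring the ratio of gained to lost sites to 1.0 by construction, and on percentile ranks 49% of common pairs were higher without leucine, for which the cause was not tested. Matching at 100 bp gave common shares of 5.36% (+Leu list) and 4.08% (-Leu list) and a common motif share of 50.0%, and matching at 1000 bp shares of 7.40% and 5.68%. A score of 30 or more gave shares of 9.23% and 6.0%, 3508 gained and 2204 lost sites (ratio 1.59), 89.7% of pairs higher with a median ratio of 2.90, promoter shares of 28.1%, 6.81% and 3.18%, motif shares of 55.7% (common) and 8.51% (gained), and 576 gained only, 280 lost only and 13 gained and lost genes. Equal list lengths gave a common share of 5.86% of the -Leu list, 88.3% of pairs higher and a gained motif share of 6.53%. Annotated promoters alone made up 13.3%, 3.5% and 1.81% of common, gained and lost sites. Genes within 1 kb numbered 66 common, 354 gained only, 179 lost only and 4 gained and lost, and within 10 kb 1468 gained only, 987 lost only and 143 gained and lost. The motif within 150 bp was in 7.11% of gained and 1.01% of lost sites, and TGATGNAA in 56.8%, 8.70% and 1.32% of common, gained and lost sites. Depth is not in the lists, so how many weak sites of either list a deeper library would share is not known.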

Other observations

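Few sites of any class lay on the X chromosome, which makes up 6.49% of the length of the autosomes and X together. It held 6 WT +Leu peaks (0.124% of the peaks on these chromosomes, 0.0569 to 0.27) and 23 WT -Leu peaks (0.362%, 0.241 to 0.542), of which 21 were gained, 4 lost and 2 of each list common. Gained sites came to 0.123 per Mb there, against 1.61 to 3.84 per Mb on the autosomes. The GCN2 KO lists were alike, with 16 peaks (0.451%) with leucine and 7 (0.263%) without it. The X sites were not all weak, since the -Leu ones scored up to 471. The cause was not tested.

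Scores took few values near the lower end of the lists. In the gained class 18.2% of sites scored exactly 23 and 14.4% exactly 30, so ranks within that range are tied over many sites.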
